A study of Mus musculus with 28 samples.

Results

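Acetylation of a C-terminal lysine of histone H2B (H2BK120ac) in the group coded TD was set against acetylation of an N-terminal tail lysine of histone H3 (H3K27ac) in the 4HT group, region by region, in mouse embryonic stem cells (mESCs). Both marks were mapped by CUT&Tag, a method that tethers a transposase to antibody-bound chromatin so that DNA near the mark is cut and tagged. All 127646 regions of the deposited tables, the same in both marks, were used, and the deposited value was CPM, coverage scaled to the depth of each library. Because the marks sit in separate tables, each region was given its percentile rank within each column, with a region without coverage counted as 0. In the main results only ranks were compared between the tables, and the CPM values printed describe each column on its own.

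All cells of both groups carried the genotype FOXD3-iKO, an inducible knockout of the forkhead factor FOXD3, grew in medium with L2i, and had a treatment time of 24 h. The 4HT column merges 2 asynchronous samples given 4-hydroxytamoxifen, the inducer of FOXD3 depletion, and the EtOH column merges 2 solvent samples. The TD column merges 3 samples, as do those of the other H2BK120ac codes, ED, ET and TT, and the labels used here do not spell out the codes. Whether TD cells received the same treatment as the 4HT cells is therefore not known, and mark, code and experiment cannot be told apart. With 1 merged column per group there is no replicate spread, so no test was run, and the intervals printed cover counting error only. A further 8 columns named IgG, a control antibody with no chromatin target, served as background. Their names carry sorted cell cycle phases and match no sample of the labels.

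H3K27ac is laid down by the acetyltransferases CBP and EP300 at active enhancers and promoters and is a standard mark of active regulatory DNA. H2BK120ac sits on the lysine that is otherwise ubiquitinated during transcription, and it is also found at active promoters and enhancers. The transposase of CUT&Tag cuts open chromatin to some extent without the antibody, so that open regions carry signal in IgG controls too.

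The promoters that carry the contrast between the marks are shown first, as the 250 bases before the transcription start site (TSS), 5′ to 3′ on the strand of the gene, from RefSeq on GRCm38.p6, the build named mm10 in the files. They were chosen after their values were seen. Capitals mark matches on either strand to an E-box (CACGTG), a cAMP response element (TGACGTCA), a CCAAT box (CCAAT) or a GC box (GGGCGG), and a match is only a match of letters. Ctc1, a subunit of the telomere-binding CST complex (chr11:69015661-69015910, plus strand), and Ccng1, the gene of cyclin G1 and a p53 target (chr11:40755287-40755536, minus strand), had regions in the top 5% of both columns.
Ctc1: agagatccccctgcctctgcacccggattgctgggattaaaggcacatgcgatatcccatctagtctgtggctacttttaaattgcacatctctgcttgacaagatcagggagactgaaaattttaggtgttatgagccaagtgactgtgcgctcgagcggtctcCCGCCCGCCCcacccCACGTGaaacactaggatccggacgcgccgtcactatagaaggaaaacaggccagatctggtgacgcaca
Ccng1: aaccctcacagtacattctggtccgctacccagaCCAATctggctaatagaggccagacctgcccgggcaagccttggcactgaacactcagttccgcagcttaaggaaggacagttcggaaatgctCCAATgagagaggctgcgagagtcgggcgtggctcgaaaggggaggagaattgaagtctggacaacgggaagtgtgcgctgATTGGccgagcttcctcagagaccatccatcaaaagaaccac

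Trp73, the gene of the p53 family member p73 (chr4:154097174-154097423, minus strand), and Plk2, a polo-like kinase gene and p53 target (chr13:110394794-110395043, plus strand), had regions in the top 5% of TD that ranked far lower in 4HT.
Trp73: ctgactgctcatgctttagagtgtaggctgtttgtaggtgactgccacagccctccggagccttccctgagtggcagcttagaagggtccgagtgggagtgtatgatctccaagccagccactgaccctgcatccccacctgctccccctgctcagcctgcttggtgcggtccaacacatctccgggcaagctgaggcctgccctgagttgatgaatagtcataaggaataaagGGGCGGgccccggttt
Plk2: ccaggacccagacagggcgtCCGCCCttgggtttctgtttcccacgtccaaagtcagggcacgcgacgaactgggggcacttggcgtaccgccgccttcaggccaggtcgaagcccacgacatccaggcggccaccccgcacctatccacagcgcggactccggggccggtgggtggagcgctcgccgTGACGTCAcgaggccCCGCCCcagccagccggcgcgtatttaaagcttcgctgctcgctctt

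Zfp60 (chr7:27731159-27731408, plus strand) and Zfp2 (chr11:50916177-50916426, minus strand), genes of zinc finger proteins, had regions in the top 5% of 4HT without coverage in TD.
Zfp60: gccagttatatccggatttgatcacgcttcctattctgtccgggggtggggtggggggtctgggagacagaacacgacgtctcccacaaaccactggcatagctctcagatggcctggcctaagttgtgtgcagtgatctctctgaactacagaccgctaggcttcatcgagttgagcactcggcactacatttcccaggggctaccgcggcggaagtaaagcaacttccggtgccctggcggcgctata
Zfp2: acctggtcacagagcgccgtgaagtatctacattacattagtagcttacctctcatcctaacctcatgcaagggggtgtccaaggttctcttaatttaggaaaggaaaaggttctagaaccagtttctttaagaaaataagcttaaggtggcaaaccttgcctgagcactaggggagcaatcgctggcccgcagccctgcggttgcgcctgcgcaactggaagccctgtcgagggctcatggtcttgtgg

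The windows of Zfp60 and Zfp2 held none of the 4 motifs, and those of Plk2 held a match to the cAMP response element and 2 to the GC box. All 250 bases of the Ccng1 and Plk2 windows lay inside the region measured, as did 74 bases at Ctc1, 194 at Trp73, 199 at Zfp60 and 173 at Zfp2. The GC content of these windows ran from 50.8% at Zfp2 to 68.4% at Plk2.

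The columns were shallow, which bounds every rank below. The commonest value, read as 1 fragment, was 0.412 CPM in TD and 0.207 CPM in 4HT. Read so, it implies a depth of 2.43 M fragments in TD and 4.82 M in 4HT. Some TD values lie below this commonest value, down to 0.25 of it, and no 4HT value does. The reading as 1 fragment, and the depth from it, are therefore less sure in TD. In TD 48.2% of the regions had no coverage, against 31.8% in 4HT, so an uncovered region ranked at percentile 24.1 in TD and 15.9 in 4HT. A region at exactly 1 fragment ranked at 64.7 in TD and 43.8 in 4HT, so a gap of about this size between the ranks of a region can be 1 fragment against 1 fragment. The top 5% of a column, 6382 regions, began at 1.60 CPM in TD and 1.94 CPM in 4HT, which is 3.9 and 9.34 times the value of 1 fragment. Values were read as means over covered bases, so these multiples are depths and not numbers of fragments in a region. Here and below, 1 fragment names this value, which several fragments that do not overlap would also give. The last region inside the TD threshold had 1.605 CPM and the first outside it also rounded to 1.605 CPM.

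The label was checked against promoter regions of cell type markers. All 10 markers of embryonic stem cells had a promoter region, with 8 in the top 10% of TD and 6 in that of 4HT, where 23.8% and 22.2% of all genes with a promoter region were. Lin28a was at 0 in TD and Esrrb in 4HT. Their summed coverage was 17.8 CPM in TD and 24.6 CPM in 4HT. Of 8 fibroblast feeder markers 6 had one, none in the top 10% of either column, with sums of 1.30 CPM in TD and 0.729 CPM in 4HT. Col1a2, Dcn and Pdgfrb were at 0 in TD, and Col1a1, Col1a2, Dcn and Thy1 in 4HT. Primitive endoderm markers (3 of 4 with a region, sums 1.13 and 0.778 CPM) and trophectoderm markers (4 of 4, sums 1.34 and 1.59 CPM) had none in the top 10% either.

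Over all regions, the landscapes of the marks ran together in part, and more closely at promoters than away from them. Spearman's rank correlation between TD and 4HT was 0.478 over 127646 regions, 0.618 over the 18708 regions within 1 kb of a TSS (14.7% of all) and 0.427 over the 108938 farther away. The regions share their libraries, depth and width, so these are descriptions of the columns. For the same 4HT column, ED gave 0.493 over all regions, 0.450 within 1 kb and 0.489 farther away, so the higher value near a TSS was seen in TD and in TT (0.627 within 1 kb, 0.420 farther away) but not in ED. By distance, the rank correlation between TD and 4HT was 0.627 where a TSS lay inside the region, 0.538 from 1 bp to 1 kb, 0.464 from 1 to 10 kb, 0.429 from 10 to 50 kb and 0.387 from 50 to 200 kb. Region width moves with distance: the median was 799 bp where a TSS lay inside and 230 to 235 bp beyond 1 kb.

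Coverage itself overlapped in part. Both columns covered 53721 regions (42.1%), TD alone 12347 (9.67%), 4HT alone 33305 (26.1%) and neither 28273 (22.1%). Of the regions covered in both, 23.4% lay within 1 kb of a TSS, against 10.1% of those covered in TD alone and 9.38% of those covered in 4HT alone. Among the regions covered in both, the rank correlation was 0.404, lower than over all regions, where joint absence of coverage adds to it. In the plot of ranks in bins, the fullest bins were those of regions with no coverage or 1 fragment in each column.

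**Figure D1:**
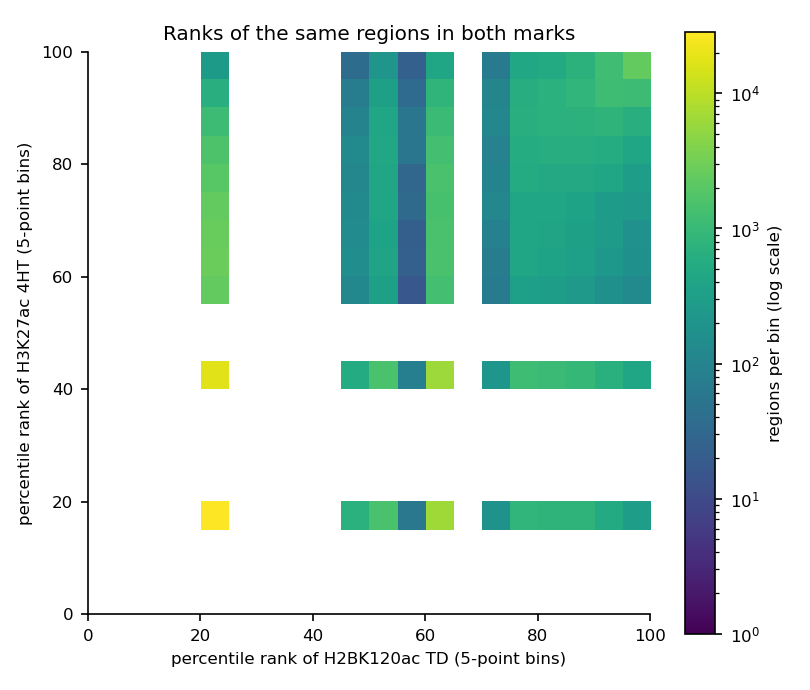
Number of regions by percentile rank in H2BK120ac TD (x axis) and in H3K27ac 4HT (y axis), in bins of 5 percentile points with a log colour scale. White bands hold no regions because uncovered regions and regions at 1 fragment share tied ranks, and the upper right bin holds the 2434 regions in the top 5% of both columns.

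IgG coverage ran with both marks and more with 4HT than with TD. The rank correlation with mean IgG was 0.396 for TD and 0.562 for 4HT. With the ranks of mean IgG and region width taken out, the partial rank correlation between TD and 4HT was 0.314 over all regions, 0.451 within 1 kb of a TSS and 0.289 farther away. The same partial value for ED and 4HT was 0.340 over all regions, 0.285 within 1 kb and 0.351 farther away, so the order of promoters over distal regions for TD, and of distal regions over promoters for ED, was also seen with IgG and width taken out. Among the 35300 regions (27.7%) that no IgG column covered, the rank correlation between TD and 4HT was 0.195, and among the 5672 covered by all 8 it was 0.591. The rank correlation between TD and TT ran over the same classes from 0.346 to 0.779, and between 4HT and EtOH from 0.331 to 0.943. The part of IgG signal, depth and width in these values was not tested.

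**Figure D2:**
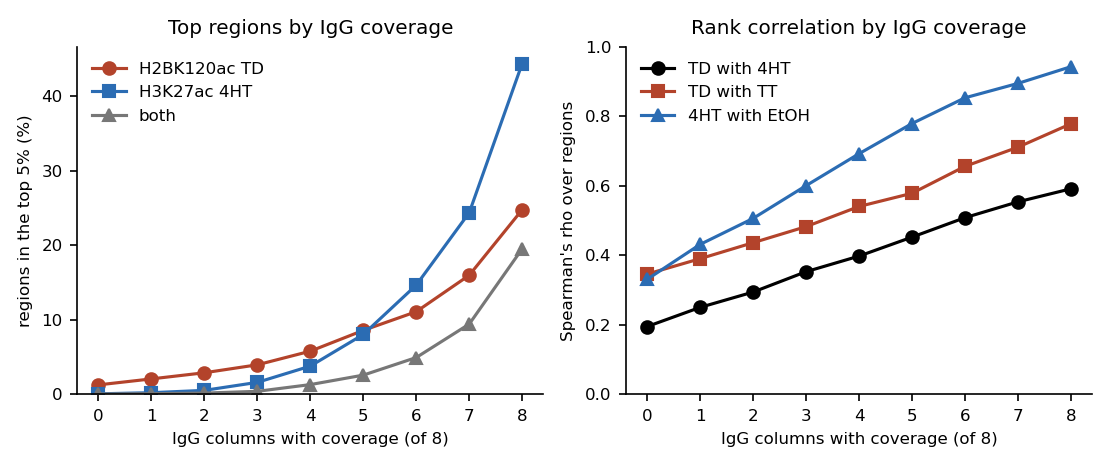
Left, share of regions in the top 5% of H2BK120ac TD, of H3K27ac 4HT and of both, by the number of IgG columns (0 to 8) that cover the region. Right, Spearman's rank correlation between columns in the same classes. At 8 IgG columns 24.8% of the regions were in the top 5% of TD and 44.4% in that of 4HT, and at 0 IgG columns 1.24% and 0.0340%.

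The strongest regions of the marks coincided in part. Of the 6382 regions in the top 5% of TD, 2434 were also in the top 5% of 4HT, which is 38.1% of either list (95% Wilson interval 37.0% to 39.3%) and 1.91% of all regions. The TD top list shared 70.0% with TT, 26.95% with ET, 24.1% with ED, 36.5% with H3K27ac EtOH and 27.5% with mean IgG. Over all regions the TD list thus shared more with H3K27ac in either group than with H2BK120ac in ED or ET. Over 1 kb from a TSS the shares with ET and EtOH were nearly level, at 34.9% and 35.6%. The 4HT top list shared 79.5% with EtOH, 44.4% with ED and 50.7% with mean IgG. The share of 4HT top regions found in ED was above that found in TD, and the share found in IgG was above both.

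Sharing differed by the position of the regions. Of the 1868 TD top regions within 1 kb of a TSS, 40.6% were also top in 4HT (38.4% to 42.8%) and 7.87% in ED (6.73% to 9.18%). Of the 4514 farther away, 37.1% were top in 4HT (35.7% to 38.5%) and 30.8% in ED (29.4% to 32.1%). Seen from 4HT, 52.2% of its 1453 top regions near a TSS were top in TD and 12.7% in ED. Of its 4929 distal top regions 34.0% were top in TD and 53.7% in ED. The shares of a list are taken over the same regions, and the intervals cover counting error only, so no difference between them was tested. Only 349 of the ED top regions lay within 1 kb of a TSS, so the share of near regions that ED could hold was small from the start. In the sharing plot, ED and ET show low bars near a TSS and higher bars away from it, while in the TD list TT and the H3K27ac columns differ by under 5 points between the positions.

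**Figure D3:**
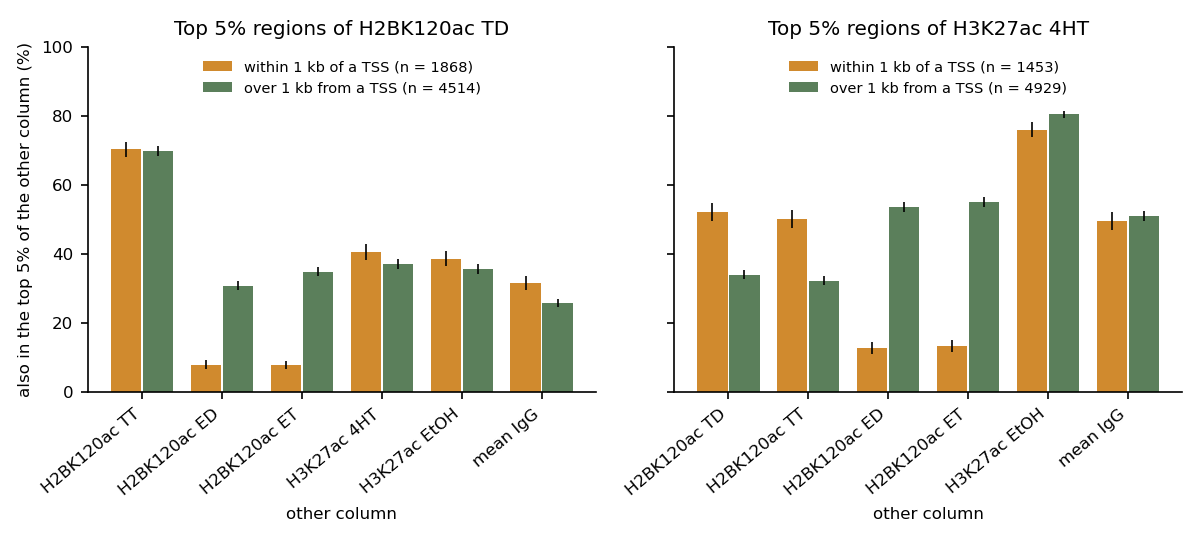
Share of the top 5% regions of H2BK120ac TD (left) and of H3K27ac 4HT (right) that were also in the top 5% of each other column, for regions within 1 kb of a TSS and farther away. Bars are percentages with 95% Wilson intervals; near a TSS 40.6% of the TD list was top in 4HT and 7.87% in ED.

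The 2434 regions high in both marks were wide, often near a TSS, and high in IgG. Of them 31.1% lay within 1 kb of a TSS (14.7% of all regions), and the median width was 467 bp (252 bp over all regions). Their median IgG rank was 96.2, and 57.8% were in the top 5% of IgG. These traits were not particular to them. The 3680 regions top in 4HT with lower TD coverage had a median width of 440 bp and a median IgG rank of 94.6, with 47.6% in the top 5% of IgG. Of the 3223 regions top in TD with 4HT between its median and its top 5%, 32.2% lay within 1 kb of a TSS. The 10 with the highest lower rank, leaving out the top 1% of IgG, had 8.38 to 24.4 CPM in TD and 7.94 to 17.1 CPM in 4HT, and 6 of them lay over 10 kb from a TSS. All 10 were also in the top 5% of TT and of EtOH, and 8 of them in that of ED.

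Among these, the region at chr17:34120945-34121112, 635 bp from the TSS of Brd2, which encodes a BET protein that reads acetylated histones, had 15.1 CPM in TD and 7.62 in TT, 1.98 in ED and 2.55 in ET. In H3K27ac it had 10.3 CPM in 4HT and 8.23 in EtOH, and its IgG rank of 86.0 was the lowest of the 10. The region with the highest lower rank, chr3:75650515-75650697, lay 93022 bp from the TSS of Serpini1, the gene of the serine protease inhibitor neuroserpin, with 11.9 CPM in TD, 13.8 in 4HT, 3.68 in ED and an IgG rank of 98.2. The region inside Ttf1, which encodes a factor of ribosomal RNA gene transcription termination, at chr2:29065799-29066152 had 15.9 CPM in TD, 15.8 in TT and 1.52 in ED, with 8.43 in 4HT and 4.65 in EtOH. TD and TT stood above ED and ET at each of these 3 regions, which is a description of 1 column each. The other 7 lay nearest to Impa2, Ncoa1, Gnai1, Igll1, Gm15319, Il17b and Gm50595. The last of these, at a TSS, had the highest TD value of the 10, 24.4 CPM, with 1.23 in ED and 7.94 in 4HT.

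At promoters, taken as the region of highest mean rank within 1 kb of a TSS, 14488 genes had a region, and 756 of them (5.22%) had it in the top 5% of both columns. Flcn, the gene of the growth regulator folliculin, had 10.6 CPM in TD and 9.69 in 4HT. Ulk1, an autophagy kinase gene, had 13.8 and 7.59 CPM, and Vdac1, a mitochondrial channel gene, had 7.603 and 6.83 CPM. Rpl19, a ribosomal protein gene, had 6.46 and 7.49 CPM, and Ctc1 had 12.9 and 6.13 CPM. The IgG ranks of these 5 regions ran from 96.9 at Ctc1 to 99.96 at Ulk1, and the genes other than Rpl19 were picked once their values were known. Their ED values ran lower, from 0.701 CPM at Rpl19 to 2.35 CPM at Flcn.

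Regions high in TD with no coverage or only 1 fragment in 4HT were narrower, more often distal and lower in IgG than all regions. There were 725 of them, 11.4% of the TD top list and 0.568% of all regions. In 4HT 41.1% of them had no coverage and 58.9% had the value of 1 fragment. That is also the median value of the column, so the second kind ranks under the median only through its tied rank. Of the 725 regions 9.79% lay within 1 kb of a TSS, beside 14.7% of all regions. The median width was 201 bp (252 bp over all regions), and the median distance to a TSS was 36723 bp (28439.5 bp). Their median IgG rank was 39.5, only 1.24% were in the top 5% of IgG, and 32.8% had no IgG coverage, beside 27.7% of all regions. In TT 64.0% of them were again in the top 5%, against 1.79% in ED and 2.48% in ET. In EtOH 22.2% of them had no coverage, near the 23.1% of all regions.

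The 10 with the largest gap had no 4HT coverage and 6.89 to 21.2 CPM in TD, which is 16.7 to 51.5 times the value of 1 fragment. All 10 were in the top 5% of TT, at 3.35 to 15.6 CPM, and none was in that of ED, at 0 to 0.992 CPM, or of EtOH, at 0 to 0.376 CPM. The strongest, chr8:10200103-10200302, lay inside Myo16, the gene of an unconventional myosin, 46192 bp from its TSS, and had 21.2 CPM in TD and 15.6 in TT. It had 0.887 CPM in ED, 2.38 in ET, 0.294 in EtOH and no coverage in 4HT or in any IgG column. The region at the TSS of Junb, which encodes an AP-1 subunit of the immediate early response, at chr8:84978722-84978968 had 14.0 CPM in TD, 8.57 in TT and 0.404 in ED, with none in 4HT and 0.266 in EtOH. Its IgG rank was 74.7. Another region, 1915 bp from the Junb TSS at chr8:84976060-84976833, was in the top 5% of both columns. It had 11.3 CPM in TD and 2.57 in 4HT, with an IgG rank of 97.7. The region chr7:135596576-135596714 inside Ptpre, a receptor-type tyrosine phosphatase gene, had 10.01 CPM in TD and 8.52 in TT and no coverage in ED, ET or 4HT. The other 7 lay nearest to Rpl34-ps1, Ptp4a3, Apip, Cdh10, Nod2, Crbn and Ccer1.

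More broadly, 437 TD top regions had no coverage in any IgG column, a count taken after the values were seen. Of these 272 (62.2%, 57.6% to 66.7%) were also in the top 5% of TT, 27 in that of ED, 34 in that of ET and 2 in that of 4HT. Of all 35300 regions without IgG coverage 1.25% were in the top 5% of TT, 0.853% in that of ED, 0.745% in that of ET and 0.0340%, or 12 regions, in that of 4HT, so few could be shared with 4HT. Their medians were 2.48 CPM in TD, 1.95 in TT, 0.445 in ED and 0.207 in 4HT, the ED and 4HT medians being 1 fragment each. Only 50 of the 437 lay within 1 kb of a TSS. After Myo16 the strongest lay near Ctnnd2 (15.5 CPM in TD, 0.577 in 4HT), Zfp750 (14.0 and 0.663) and Gadl1 (13.7 and 0.376), and each of these had 11.2 to 17.0 CPM in TT.

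Among gene promoters, 34 were in the top 5% of TD with no coverage (14) or 1 fragment (20) in 4HT. Trp73 had 6.47 CPM in TD and 5.34 in TT, 0.335 in ED and 1.10 in ET, with none in 4HT and 0.290 in EtOH. Perp, a p53 target gene of epithelial adhesion and apoptosis, had 3.29 CPM in TD and 1.72 in TT with 1 fragment in 4HT. Fos, the other classic AP-1 subunit gene, had 3.35 CPM in TD, 2.12 in TT and 0.445 in ED with 1 fragment in 4HT. Genes of other lineages were among them too: Neurod1, a neuronal differentiation factor, had 1.92 CPM in TD and 2.40 in TT and no coverage in ED, 4HT or EtOH. Runx1, a blood stem cell factor, had 1.64 CPM in TD, 0.718 in TT, 0.378 in ED and 1.54 in ET, and none in 4HT. Rbm38, an RNA-binding protein gene and p53 target, had 1.95 CPM in TD and 1.84 in TT and no coverage in ED, ET or 4HT. The values of Neurod1, Runx1 and Rbm38 in TD are 3.99 to 4.73 times that of 1 fragment.

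Regions high in 4HT and without TD coverage were few and distal. Beside all regions they were high in IgG and in the H2BK120ac column ED, but less often so than the whole 4HT top list. There were 268 of them, 4.20% of the 4HT top list and 0.210% of all regions. Within 1 kb of a TSS lay 5.22% of them, beside 14.7% of all regions. Their median IgG rank was 88.8 and 28.4% were in the top 5% of IgG, beside 50.7% of the whole 4HT top list. Their median rank in ED was 92.3, and 33.2% were in the top 5% of ED, beside 44.4% of the whole 4HT top list. In the top 5% of TT were 1.12% of them (36.3% of that list) and in that of EtOH 60.8% (79.5%). In a further 3680 regions of the 4HT top list (2.88% of all regions) TD had coverage below its own top 5%, with a median of 0.758 CPM, while 43.6% of them were in the top 5% of ED and 12.9% in that of TT. Absence of coverage in TD at its depth cannot be told apart from a low level.

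The 10 with the largest gap had 5.001 to 7.72 CPM in 4HT, which is 24.1 to 37.2 times the value of 1 fragment, and 1.59 to 5.46 CPM in EtOH. All 10 were in the top 5% of EtOH and 8 of them in that of ED. The strongest, chr13:20986002-20986282 inside Aoah, the gene of a lipopolysaccharide-degrading enzyme, had 7.72 CPM in 4HT, 4.44 in EtOH, 2.99 in ED and 2.87 in ET, with none in TD and 1.05 in TT. The region nearest to Skp1, a subunit gene of SCF ubiquitin ligases, at chr11:52227599-52227758 had 5.57 CPM in 4HT, 3.67 in ED, 3.72 in ET and 1.82 in TT, and was the only one of the 10 in the top 5% of TT. The others lay nearest to Ctla4, Gnpnat1, Rnf216, Nucks1, Gm14393, Camkmt, Thrsp and G3bp2, with IgG ranks of 74.6 to 98.8 over the 10.

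At promoters this pattern was rare, with 6 genes of 14488: Gm14393, Nup85, Zfp60, Zfp2, Psma8 and Aox1. Nup85, a nuclear pore subunit gene, had 3.35 CPM in 4HT and 2.24 in EtOH, with none in TD, 0.671 in TT and 0.796 in ED. Zfp60 had 2.75 CPM in 4HT and 1.44 in EtOH, with none in TD or TT, 1.30 in ED and 0.475 in ET. Zfp2 had 2.59 CPM in 4HT and 1.44 in EtOH, with none in TD, 0.415 (1 fragment) in TT, 0.716 in ED and 1.47 in ET. At Zfp2 and Zfp60 the 4HT values are 12.5 and 13.2 times that of 1 fragment.

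The transcription factor p53 induces genes of cell cycle arrest, apoptosis and DNA repair under stress, and of the 16 lists its targets had the largest share of promoters in the top 5% of TD. Of 20 promoters with a region, 18 were in the top 5% of TD, where 11.6% of all 14488 genes were, and 6 were in that of 4HT, where 9.48% were. All 6 were in both, where 5.22% of all genes were. The list median rank was 99.3 in TD and 92.5 in 4HT, against 76.9 and 75.7 over all genes, and the TD rank was above the 4HT rank in 20 of 20, against 52.9% of all genes. In TT 18 were in the top 5% (11.7% of all genes), in ED 2 (2.06%) and in IgG 4 (12.3%), and the list's median IgG rank was 84.8. The list was fixed with earlier results on these columns known, so its count in TD is no independent evidence.

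Regulators of p53 and of the cell cycle were among the highest. Ccng1 had 27.1 CPM in TD and 21.0 in TT, with 2.12 in ED, 3.28 in ET, 5.195 in 4HT and 3.55 in EtOH. Cdkn1a, which encodes the cell cycle inhibitor p21, had 15.9 CPM in TD, 12.8 in TT, 0.596 in ED and 0.364 in ET, with 1.68 in 4HT and 1.13 in EtOH. Mdm2, the gene of the ubiquitin ligase that degrades p53, had 11.3 CPM in TD, 10.4 in TT, 0.445 in ED and 0.607 in ET, with 1.90 in 4HT and 0.818 in EtOH. The TD rank of Mdm2 was 99.9 beside a 4HT rank of 94.9, just outside the top 5%, and an IgG rank of 59.1. At each of these genes TD and TT were the highest of the H2BK120ac columns.

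Genes of apoptosis and stress were also high in TD and TT. Bbc3, which encodes the BH3 protein PUMA, had 19.8 CPM in TD, 15.1 in TT, 1.56 in ED and 3.98 in 4HT, with an IgG rank of 99.5. Trp53inp1, a stress-induced nuclear protein gene, had 9.56 CPM in TD, 8.95 in TT, 1.17 in ED and 4.80 in 4HT. Plk2 had 9.63 CPM in TD, 6.23 in TT, 0.665 in ED, 0.887 in ET, 0.251 in 4HT and 0.488 in EtOH, so that its rank was 99.8 in TD and 59.1 in 4HT. Fas, the death receptor gene, had 2.52 CPM in TD, 3.15 in TT and none in ED, ET or IgG, with 0.349 in 4HT. The 2 members outside the TD top 5% were Tnfrsf10b, another death receptor gene, at 1.16 CPM and Trp53i11 at 0.412 CPM, which is 1 fragment, as in 4HT, so that its TD rank is the higher through tied ranks alone.

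Away from promoters the p53 list leaned the same way with a smaller gap. Taking the region of highest mean rank from 1 to 50 kb of a TSS, 11 of 19 genes were in the top 5% of TD (16.9% of 19238 genes) and 3 in that of 4HT (15.5%), with the TD rank higher in 14 of 19 (52.4% of all genes). Among these 14, Polk had no coverage in either column, and its TD rank is the higher through tied ranks alone. The Mdm2 region at chr10:117717693-117717831, 6935 bp from its TSS, had 9.71 CPM in TD and 0.917 in 4HT. The Bax region at chr7:45460952-45461063 had 10.8 CPM in TD and 8.39 in 4HT with an IgG rank of 99.6. Bax encodes the pore-forming effector of apoptosis. A region within 50 kb can belong to another gene.

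**Figure D4:**
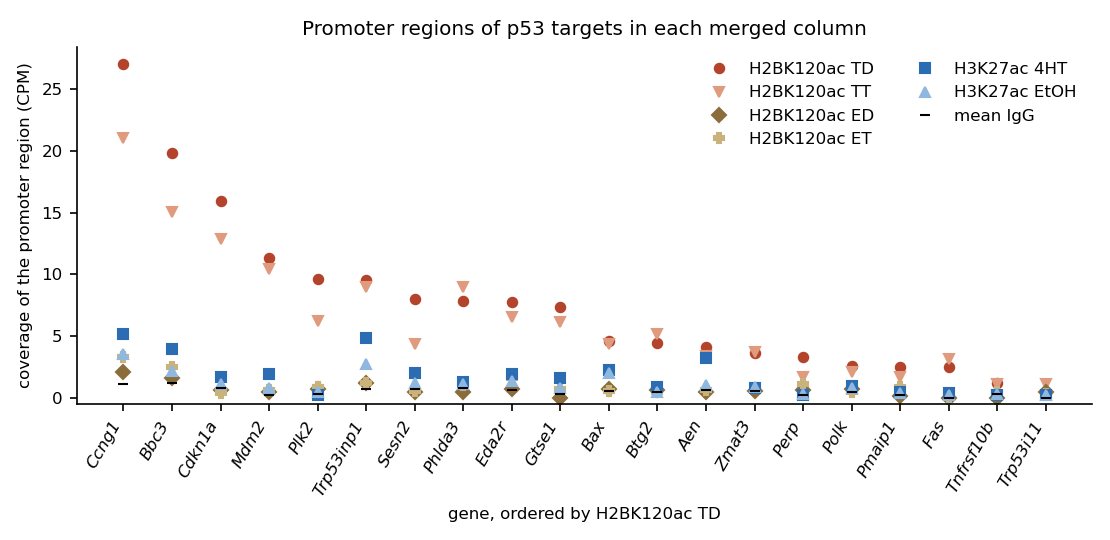
Coverage (CPM) of the promoter region of the 20 p53 targets in each merged column and in mean IgG, ordered by H2BK120ac TD. TD and TT lie above ED and ET at most genes, from 27.1 CPM in TD at Ccng1 down to 0.412 CPM at Trp53i11. H3K27ac and IgG share the axis for display only.

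Immediate early genes are the first genes induced by growth factors and stress. Of 15 promoters 5 were in the top 5% of TD (11.6% of all genes), 1, Jund, in that of 4HT (9.48%) and 3 in that of IgG (12.3%). The TD rank was higher in 13 of 15 (52.9% of all genes), and the list medians were 90.4 and 71.9. At Egr3 neither column had coverage and at Fosb each had 1 fragment, and the TD rank is the higher there through tied ranks alone. Ier2, an immediate early regulator, had 6.14 CPM in TD, 5.56 in TT, none in ED and 0.899 in 4HT. Jund, the AP-1 subunit gene with broad expression, had 3.64 CPM in TD and 3.19 in 4HT with an IgG rank of 98.5. Junb was represented by a region 968 bp from its TSS (4.23 CPM in TD, 0.364 in 4HT), since the region at its TSS had the lower mean rank. Egr1 and Dusp1 ranked higher in 4HT than in TD, with 1.19 and 1.70 CPM in 4HT and 0.666 and 1.23 CPM in TD.

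Pluripotency genes ranked on either side. In the general pluripotency list, 12 of 13 genes had a promoter region, 3 in the top 5% of TD (11.6% of all genes) and 5 in that of 4HT (9.48%). The 4HT rank was higher in 9 of 12 and the TD rank in 3, beside 52.9% of all genes with the TD rank higher. Of the distal regions, 4 of 12 were in the top 5% of TD and 9 of 12 in that of 4HT, where 16.9% and 15.5% of all genes were. The 4HT rank was higher in 10 of 12. Dppa2 and Dppa4 have the same distal region, chr16:48308960-48309194, which is counted for each of them in the 4HT and IgG counts. The IgG rank is high beside these counts, with a median of 94.4 over the distal regions and 6 of 12 in the top 5% of IgG.

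Pou5f1, which encodes OCT4, had 1.30 CPM in TD and 4.08 in 4HT in its promoter region. In the region 1650 bp from its TSS, chr17:35503875-35504382, it had 1.53 CPM in TD, 1.72 in TT, 2.62 in ED, 3.26 in ET, 16.7 in 4HT and 14.9 in EtOH. There TD and TT were the lowest of the H2BK120ac columns. The rank of mean IgG was 99.95, at 1.74 CPM, and the 4HT rank was 99.99. Trim28, a corepressor gene, had 3.91 CPM in TD and 17.0 in 4HT in a region 9400 bp away. Tdgf1, the Nodal co-receptor gene, had 2.62 CPM in TD and 5.94 in 4HT at its promoter. Sox2, the partner of OCT4, went the other way, with 3.70 CPM in TD, 4.33 in TT, 0.798 in ED and 1.84 in 4HT at its promoter, and its distal region also ranked higher in TD.

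Foxd3, the targeted gene, ranked higher in H3K27ac. Its promoter region at chr4:99655987-99656129, 170 bp from the TSS by the nearer edge, had 0.474 CPM in TD, 0.278 in TT, none in ED and 0.223 in ET. In H3K27ac it had 2.81 CPM in 4HT and 1.02 in EtOH, with an IgG rank of 47.7. The distal region at chr4:99670116-99670739 had 3.05 CPM in TD, 3.98 in TT, 2.17 in ED and 7.02 in 4HT.

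In the naive pluripotency list, 7 of 19 promoters were in the top 5% of TD (11.6% of all genes), 5 in that of 4HT (9.48%), 3 in both (5.22%) and 5 in that of IgG (12.3%). Those in both were Klf2 (4.15 and 5.61 CPM), Tbx3 (4.02 and 3.09) and Zfp42 (2.94 and 6.18), a marker gene also known as Rex1. High in TD alone were genes of the LIF pathway, Stat3 (3.99 and 1.25 CPM) and its feedback inhibitor Socs3 (2.998 and 0.313), with the Krüppel-like factors Klf4 (2.58 and 0.695) and Klf5 (4.74 and 1.22). High in 4HT alone were Nanog (1.19 and 3.43 CPM) and the growth factor gene Fgf4 (1.23 and 2.58). At distal regions 10 of 19 were in the top 5% of TD, 10 in that of 4HT and 7 in both, where 8.26% of all genes were in both, and 9 were in that of IgG (14.5% of all genes). Tfcp2l1, a naive state factor, had 1.63 CPM in TD (rank 95.1) and 11.2 in 4HT (rank 99.9) at chr1:118647912-118648407, so it was top in both. Klf2 had 1.44 CPM in TD (rank 94.2) and 13.7 in 4HT (rank 99.97) at chr8:72333563-72334150. At Klf4 the order was the reverse, with 5.76 CPM in TD (rank 99.4) and 0.621 in 4HT (rank 81.8) at chr4:55530408-55530579, and 1.74 in TT.

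Formative and primed genes, which mESCs in L2i keep low, were low in both marks at promoters. Of 13 promoters none was in the top 5% of TD (11.6% of all genes) and 1, Foxd3, in that of 4HT (9.48%). The medians were at the value of 1 fragment in each column, 0.412 and 0.207 CPM. At distal regions 2 of 12 were in the top 5% of TD, a share near the 16.9% of all genes, and 5 in that of 4HT, beside 15.5%. Among these 5, the Foxd3 region is also counted in the general pluripotency list. The Fgf15 region, 38139 bp from its TSS, is also that of Fgf4 in the naive list, 2993 bp from the Fgf4 TSS. Zic5, a zinc finger factor gene, had 2.34 CPM in TD and 6.96 in 4HT at a region 48731 bp away. Otx2, a factor of the formative state, had 0.492 and 2.56 CPM at 38089 bp.

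**Figure D5:**
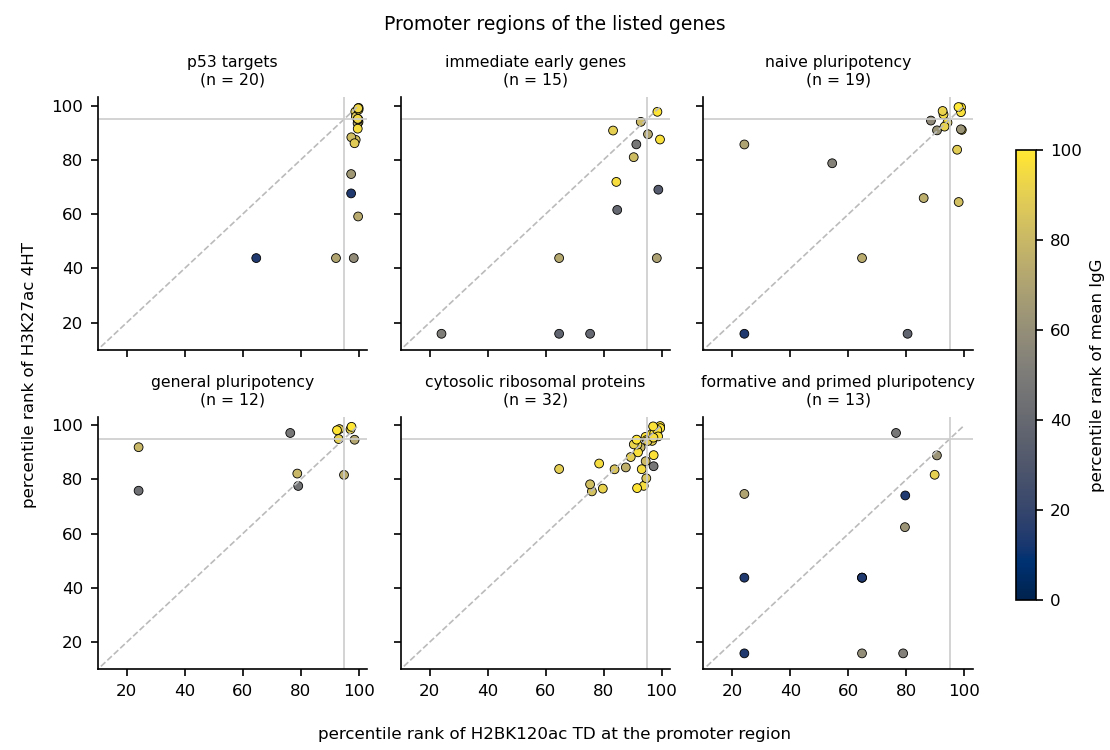
Percentile rank of H2BK120ac TD (x axis) and of H3K27ac 4HT (y axis) at the promoter region of each gene of 6 lists, coloured by the rank of mean IgG. Grey lines mark percentile 95 and the dashed line equal ranks; 18 of 20 p53 targets lie right of the vertical line and 6 lie above the horizontal one.

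Genes of general cell functions had larger shares in the top 5% of both marks, and of IgG, than all genes. Of 32 ribosomal protein promoters 12 were in the top 5% of TD, 9 in that of 4HT and 8 in both, while 18 were in that of IgG, beside 11.6%, 9.48%, 5.22% and 12.3% of all genes. Rpl4 had 6.54 CPM in TD and 4.63 in 4HT, and Rps23 had 2.35 and 6.67 CPM. In the housekeeping list 8 of 19 were high in TD, 7 in 4HT, 5 in both and 7 in IgG, with Hspa8, a constitutive chaperone gene, at 5.23 and 4.76 CPM. Of 18 cell cycle and replication promoters 7 were high in TD, 5 of those in 4HT as well, and 6 were high in IgG. Mcm5 and Mcm7, subunits of the replicative helicase, were in both, and Cdk1, the mitotic kinase gene, and Ccnb1, its cyclin, were in TD alone. Of 19 chromatin regulators 8 were high in both, none in 1 mark alone and 6 in IgG. Among them Tet1, which encodes a 5-methylcytosine oxidase, had 11.1 CPM in TD, 6.31 in TT, none in ED, 0.831 in ET and 4.05 in 4HT.

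Lists of genes silent in mESCs were near the level of single fragments. No promoter of 7 primitive endoderm or 9 mesendoderm genes was in the top 5% of either mark. The lists with 1 promoter high in TD and none in 4HT were the Hox clusters (Hoxc13, 2.39 CPM, of 12), trophectoderm (Tead4, 2.06 CPM, of 10) and neuroectoderm (Neurod1, of 10). Of 10 feeder genes Fn1, the fibronectin gene, was high in both, at 1.82 and 2.06 CPM. Of 13 olfactory and taste receptor genes only 1 had a promoter region, at 1 fragment in TD. The TD rank was above the 4HT rank in 9 of 12 Hox genes and 10 of 13 formative genes, but there the ranks of 1 fragment in each column, 64.7 and 43.8, set much of the order. A few distal regions stood out, such as one 9070 bp from the TSS of Hnf4a, an endoderm factor gene, with 9.32 CPM in TD, 9.99 in TT, 1.80 in ED and 2.27 in 4HT.

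Promoter sequence was described for the same classes of genes. Of the 14488 genes 11761 had a RefSeq promoter of 300 bases, from 250 before to 50 after the TSS, and their median GC content was 61.3%. It was 62.3% for the genes high in both marks (635 of 756 with a sequence), 59.2% for the 34 genes high in TD with at most 1 fragment in 4HT (30 with a sequence) and 60.7% for the genes high in 4HT with lower TD coverage (519 of 612). The cAMP response element, on either strand, was in 5.197% of the promoters high in both, 4.81% of those high in TD with 4HT between, and 3.08% of those high in 4HT with TD between, beside 3.15% of all. The CCAAT box was in 40%, 36.4% and 42.2% of these, beside 38.3% of all. The E-box was in 11.0%, 11.5% and 11.8%, beside 10.1% of all. The GC box was in 68.8%, 71.3% and 64.5%, beside 65.8% of all. In the 34 genes high in TD with at most 1 fragment in 4HT, of which 30 were matched, the cAMP response element was in 3.33%, the CCAAT box in 30%, the E-box in 13.3% and the GC box in 63.3%. Among the 348 genes whose 4HT rank was at least 50 points above the TD rank (288 with a sequence), median GC content was 58.3%, the CCAAT box was in 47.2% and the GC box in 58.7%. No motif contains another, though the E-box and the cAMP response element share the letters ACGT. For the p53 targets (15 of 20 matched), the genes high in 4HT without TD coverage (4 of 6) and the 267 genes with the TD rank at least 50 points higher (211) the check is void, because under 80% had a sequence.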

How the data were processed

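Coverage signal in CPM, deposited by the authors with replicates merged, was used as it stands. Per the submitters' processing notes the build was mm10, with featureCounts and DESeq2 named, without a role, for H3K27ac. Aligner and coverage program: not given in the sources used here. A region without coverage holds no number and no value lies below that of 1 fragment (0.25 of it in H2BK120ac). Values were therefore read as means over covered bases, which raises sparsely covered regions. A second table with 8 IgG columns over 38087 windows around TSS gave only window positions, and the 12 sorted samples were not analysed here.

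Regions were joined on position, missing values set to 0, and mid-ranks taken per column (Python 3.11.15, pandas 2.3.3, scipy 1.17.1). Classes used the top 5% and the median, and their counting was tested on simulated data. TSS came from the RefSeq promoter table for 17491 genes and from gene span ends within 5 kb of a deposited window centre for 3995. Distances run from the nearer edge of a region. Named were the 10 regions with the highest lower rank and the 10 with the largest gap each way, outside the top 1% of IgG, listed genes in the top 5% of either column, and Foxd3. Genes and regions outside this rule, such as Brd2 among promoters, the genes of the promoter classes, and members named at lower ranks, were picked once values were known. The members and the 16 lists were chosen with earlier results of these data known. The alternatives tried are in the closing section.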

Additional observations from a re-analysis of the deposited data

How the results depend on the processing

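No paired analysis was possible because each group has 1 merged column, and for the same reason leaving out a replicate and the replicate block were not run. The rank correlation of 0.478 was 0.404 over regions covered in both, 0.146 over regions of at least 2 fragments in either column (which leaves out the low corner by construction), 0.429 without the 5% of highest IgG, 0.314 given IgG and width, 0.561 with value times width, 0.618 within 1 kb of a TSS and 0.427 farther away. The share of the TD top list also in the 4HT top list, 38.1%, was 17.4%, 25.4% and 46.7% with the top 1%, 2% and 10%, 32.6% without the 5% of highest IgG, 31.0% with mean IgG subtracted and 50.8% with value times width. It was 36.3% with TT for TD, 36.5% with EtOH for 4HT and, in an alternative added after the data were seen, 44.9% for ED with EtOH. The share of the TD list under the 4HT median rank, 11.4%, was 7.76%, 8.77% and 15.2% with the top 1%, 2% and 10%, 16.4% and 16.0% with those IgG settings, 2.46% with value times width, 12.3% with TT and 4.65% for ED with EtOH. Ranked apart, again an added alternative, it was 5.99% within 1 kb of a TSS and 15.2% farther away. The share of the 4HT list without TD coverage, 4.20%, was 1.18%, 2.12% and 6.87% with the top 1%, 2% and 10%, 7.60% without the 5% of highest IgG, 2.49% with value times width and 1.65% for ED with EtOH. Ranked apart it was 0.856% near a TSS and 5.54% farther away. It was 28.6% with mean IgG subtracted, where a TD value at or under IgG becomes 0 and so counts as none. Of 20 p53 target promoters 11 were in the top 1% of TD, beside 1.55% of all genes. In the top 1%, 2% and 10% of 4HT were 1, 3 and 11, beside 0.725%, 2.44% and 22.2% of all genes. The cause of the other moves was not tested. At the depth of TD the top 5% begins at 3.9 times the value of 1 fragment, so membership near that value rests on a depth of few fragments.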

Other observations

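Genes of zinc finger proteins whose symbol begins with Zfp, a pattern picked once values were known, ranked higher in H3K27ac 4HT than in H2BK120ac TD more often than all genes did. Of 349 such genes with a promoter region, 57 (16.3%) were in the top 5% of 4HT and 35 (10.03%) in that of TD, beside 9.48% and 11.6% of all 14488 genes. The TD rank was the higher one in 130 of them (37.2%), beside 52.9% of all genes. Their median rank was 78.9 in TD, 84.4 in 4HT and 81.3 in IgG, beside 76.9, 75.7 and 76.2 over all genes. In the top 5% of IgG were 12.6% of them, beside 12.3% of all genes. They made up 5.56% of the genes high in 4HT with lower TD coverage (34 of 612). Of those high in TD with 4HT between its median and its top 5% they made up 1.58% (14 of 887). Their share was 2.78% of the genes high in both (21 of 756) and 2.41% of all genes. Values of near-identical copies within this family are uncertain, since reads could be placed at either copy.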
